A study of Mus musculus with 9 samples.

Results

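The genes described here are 9 regulators and markers of tendon, namely Scx, Mkx, Six2, Eya1, Tnmd, Tnc, Thbs2, Thbs4 and Htra3. They were chosen by name, and each matched 1 of the 24102 rows of the deposited expression table. RNA was sequenced from GFP-positive cells sorted from limbs of mouse embryos at E12.5. Mutant cells were Shox2(Cre/-);Rosa(mTmG) and control cells Shox2(Cre/+);Rosa(mTmG), so both groups carried the Cre allele at Shox2 and the Rosa reporter, in which Cre turns on a green membrane protein. The sorted cells are therefore those in which Shox2-driven Cre was or had been active, and not all limb cells. Of 9 labelled samples, 4 are mutants, 3 are controls and 2 are wild-type whole limbs, which were not analysed here. The table has 3 mutant and 3 control columns, 1 of each from litters 1, 2 and 3. Litter 1 has 2 mutant samples, and the column does not say which of them it holds. The number of embryos behind a column was not stated.

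Tendon progenitors of the limb arise in mesenchyme and are first marked by Scx, a basic helix-loop-helix transcription factor that binds E-boxes, short DNA motifs. Mkx, a homeodomain factor of the TALE class, acts later in tendon to maintain collagen production, and Tnmd, a type II membrane protein, marks maturing tendon cells and depends on Scx. The matrix proteins Tnc, Thbs2 and Thbs4 surround tendon cells and other connective tissue, so these genes are not restricted to tendon.

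Shox2, the disrupted gene, was at 16.7, 18.3 and 96.9 FPKM in mutants of litters 1, 2 and 3, against 217, 222 and 210 FPKM in controls. The litter 3 mutant thus kept a higher share of its control's level (46.2%) than the mutants of litters 1 (7.68%) and 2 (8.25%). FPKM is a level per length of transcript and sequencing depth. A panel of 10 limb mesenchyme markers summed to between 493 and 713 FPKM in mutants and between 477 and 643 FPKM in controls, and every marker was above 0 in every column. In litter 2 the Y-linked gene Eif2s3y was listed at 0 FPKM in its mutant column and at 23.9 FPKM in its control column. Kdm5d, also Y-linked, was at 0 and 4.78 FPKM there. The sex make-up of the litter 2 columns thus differed, and its part in their values was not tested.

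Promoter windows, from 250 bases before to 50 bases after the annotated start, were found for 6 of the 9 genes in a RefSeq table of build GRCm38.p6, another build than the mm9 of the expression table. Those of Tnc, Thbs2, Thbs4 and Htra3, lower in mutants of each litter, and of Six2, higher in mutants of each litter, are shown because these genes differed in 1 direction in all 3 litters. Tnc has another listed start close by, whose window is not shown. Capitals mark the E-box CANNTG, which reads the same on both strands.
Tnc, GRCm38.p6 chr4:64046966-64047265, minus strand: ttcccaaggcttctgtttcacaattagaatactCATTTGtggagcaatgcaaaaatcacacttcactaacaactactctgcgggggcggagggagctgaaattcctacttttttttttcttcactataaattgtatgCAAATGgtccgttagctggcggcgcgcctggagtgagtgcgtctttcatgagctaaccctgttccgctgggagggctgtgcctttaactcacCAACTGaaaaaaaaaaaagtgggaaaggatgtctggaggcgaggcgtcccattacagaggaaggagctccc
Thbs2, GRCm38.p6 chr17:14694213-14694512, minus strand: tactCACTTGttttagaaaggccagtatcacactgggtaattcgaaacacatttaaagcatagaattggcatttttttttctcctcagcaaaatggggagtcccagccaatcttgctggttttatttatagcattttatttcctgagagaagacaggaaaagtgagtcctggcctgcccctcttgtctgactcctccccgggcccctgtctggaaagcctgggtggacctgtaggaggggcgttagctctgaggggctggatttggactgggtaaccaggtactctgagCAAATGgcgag
Thbs4, GRCm38.p6 chr13:92794769-92795068, minus strand: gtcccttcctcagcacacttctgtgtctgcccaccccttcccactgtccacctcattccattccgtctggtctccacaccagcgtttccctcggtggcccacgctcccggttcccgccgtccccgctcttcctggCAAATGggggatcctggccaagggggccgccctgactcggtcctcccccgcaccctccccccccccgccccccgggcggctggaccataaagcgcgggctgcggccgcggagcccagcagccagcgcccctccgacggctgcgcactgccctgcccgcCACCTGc
Htra3, GRCm38.p6 chr5:35679731-35680030, minus strand: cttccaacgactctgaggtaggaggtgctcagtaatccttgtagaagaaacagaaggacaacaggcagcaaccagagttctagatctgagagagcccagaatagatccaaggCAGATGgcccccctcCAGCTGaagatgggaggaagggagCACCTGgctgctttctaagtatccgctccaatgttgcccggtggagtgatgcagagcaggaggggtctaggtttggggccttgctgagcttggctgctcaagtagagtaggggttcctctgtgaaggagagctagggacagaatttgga
Six2, GRCm38.p6 chr17:85688205-85688504, minus strand: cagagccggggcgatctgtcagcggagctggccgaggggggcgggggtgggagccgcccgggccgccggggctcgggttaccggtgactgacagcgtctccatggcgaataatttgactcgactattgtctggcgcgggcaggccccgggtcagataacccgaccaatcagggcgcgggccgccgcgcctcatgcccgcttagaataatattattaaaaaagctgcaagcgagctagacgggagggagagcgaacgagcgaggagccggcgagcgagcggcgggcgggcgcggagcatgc
The Tnc window held 3 E-boxes, Thbs2 2, Thbs4 2 and Htra3 3, while the windows of Six2 and Tnmd held 0. Of 32851 windows of the same length, 72.3% held at least 1 E-box, so the motif is common. The homeodomain core TAAT, searched on both strands with overlaps allowed, was found at 4 positions in Six2 and 4 in Tnmd, at 2 in Tnc, at 1 in Thbs2 and 1 in Htra3, and at 0 in Thbs4, while 58.0% of all windows held at least 1. A match of letters is a description and shows no binding.

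Scx and Mkx, the transcription factors of early and later tendon, differed in opposite directions. Scx was at 45.8, 64.4 and 62.4 FPKM in mutants of litters 1, 2 and 3, against 84.5, 79.3 and 77.2 FPKM in controls. Every mutant column lay below every control column. Mutants averaged 57.5 ± 10.2 FPKM and controls 80.3 ± 3.76 FPKM (SD, n = 3 each), a log2 difference of -0.49 (SE 0.17). The 95% interval ran from -0.90 to -0.08 on the log2(FPKM + 1) scale. Mkx was at 15.6, 19.5 and 14.6 FPKM in mutants, against 7.92, 11.7 and 8.09 FPKM in controls. Again no value of one genotype reached into the range of the other, with mutants above controls. The means were 16.6 ± 2.60 FPKM in mutants and 9.24 ± 2.15 FPKM in controls (SD, n = 3 each), a log2 difference of 0.79 (SE 0.20, 95% interval 0.31 to 1.26). Neither gene passed limma's threshold over all tested rows (adjusted p = 1.00 for Scx and 0.859 for Mkx, or 0.322 and 0.0781 with litter as a replicate block). The exact two-sided permutation p, which took no account of litter, was 0.1 for both. Groups of 3 columns allow no smaller one, and it is reached whenever the groups do not overlap.

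**Figure D1:**
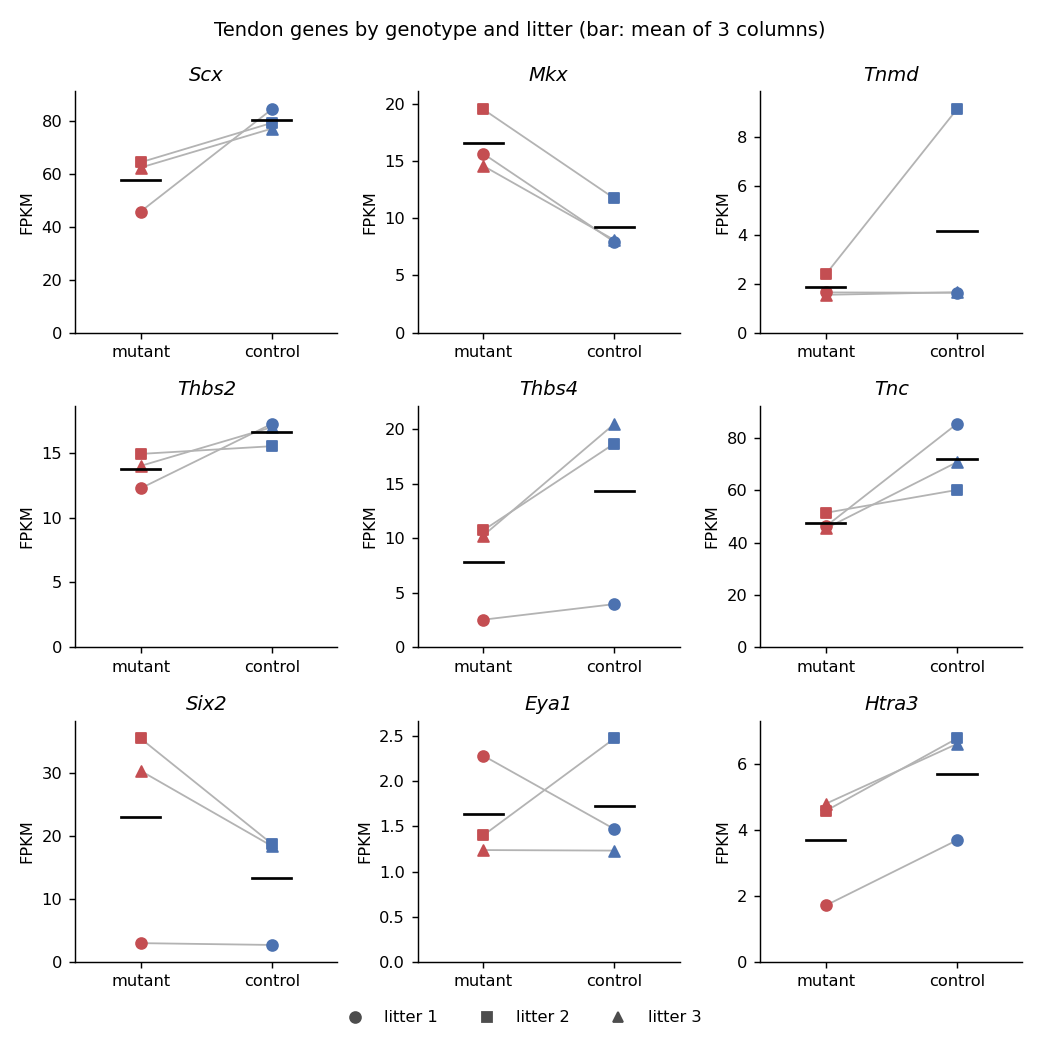
FPKM of the 9 tendon genes in each column, mutants left and controls right, with lines joining the columns of a litter and bars at the mean of 3. Scx, Thbs2 and Tnc lie lower in every mutant column than in any control column, Mkx lies higher, and Six2 and Thbs4 lie far lower in litter 1 than in litters 2 and 3.

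Scx lies inside Bop1 in the GENCODE annotation, on the opposite strand, and no source states whether reads were counted by strand. Bop1, which encodes a factor of ribosome assembly, was at 19.2, 21.7 and 24.4 FPKM in mutants, against 28.7, 28.9 and 28.2 FPKM in controls. Bop1 thus had the same direction as Scx in each litter and no overlap between groups. Only whole gene spans were compared, not exons, and whether reads of one gene were counted for the other was not tested. Fewer cells of a type and less RNA per cell cannot be told apart in such sorted bulk samples.

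Among the 9224 tested rows outside the 9 genes that averaged at least 5 FPKM and carry 1 unambiguous symbol, those most like Scx across the 6 columns were Dnm2, a dynamin of membrane fission, Akna, a microtubule organiser at centrosomes, Ece1, the endothelin-converting enzyme, Acly, which makes acetyl-CoA for lipid synthesis, and Scap, a sensor of sterols. Their Pearson correlations with Scx on the log2 scale ran from 0.979 to 0.993, over 6 columns that share litters. A correlation of 0.9 or more was reached by 99 rows. Akna was at 3.74, 5.21 and 5.09 FPKM in mutants of litters 1, 2 and 3, against 6.28, 5.89 and 6.03 FPKM in controls. As with Scx, its litter 1 mutant held the lowest value, but Akna was picked by its likeness to Scx over these columns.

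Six2 and Eya1 belong to a network in which homeodomain factors such as Six2 act with Eya coactivators, and both are known from limb tendon and connective tissue. Six2 was at 2.96, 35.5 and 30.4 FPKM in mutants of litters 1, 2 and 3, against 2.67, 18.8 and 18.4 FPKM in controls. It was higher in the mutant of each litter, but litter 1 was low in both genotypes. The mutant mean of litters 2 and 3 was 11.1 times the litter 1 mutant, and the control mean 6.97 times the litter 1 control. Such a gap of over 3-fold in both genotypes was seen in 161 of all 9430 tested rows averaging at least 5 FPKM, whatever their symbol (1.71%). The log2 difference between genotypes was 0.56 (SE 1.03, 95% interval -1.89 to 3.02), and limma's adjusted p was 1.00. With litter as a block the SE was 0.16 and limma's adjusted p 0.314. Without the litter 1 control, Six2 had a log2 difference of -0.24, without the litter 2 mutant one of -0.01, and without the litter 1 mutant one of 1.595.

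Eya1 was low throughout, at 2.29, 1.40 and 1.24 FPKM in mutants of litters 1, 2 and 3, against 1.47, 2.48 and 1.23 FPKM in controls. The mutant was higher in litter 1, lower in litter 2 and nearly level in litter 3. The log2 difference was -0.04 (SE 0.24, 95% interval -0.61 to 0.53), and its sign changed without mutant 2, mutant 3 or control 2 (0.02, 0.07 and 0.15).

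Relatives of Six2 and Eya1 in the network gave a different count of directions. Of 12 genes in a list of Eya, Dach and Six2-related factors, Six2 and Eya1 included, 10 were tested, 5 of them higher in the mutant of each litter, where the background was 15.7% of all tested rows. Dach1, a transcriptional corepressor, was at 6.43, 9.23 and 9.04 FPKM in mutants, against 2.93, 3.61 and 4.17 FPKM in controls. Every mutant value exceeded every control value, with a log2 difference of 1.01 (SE 0.19; limma adjusted p = 0.614, or 0.0643 with the block). Dach2, its relative, was at 2.06, 1.23 and 0.881 FPKM in mutants, against 1.01, 0.481 and 0.434 FPKM in controls, with overlapping groups but a higher mutant in each litter. Eya4, a coactivator like Eya1, was at 20.8, 19.7 and 16.2 FPKM in mutants, against 14.9, 10.1 and 13.5 FPKM in controls, without overlap. Eya2, another such coactivator, was at 5.76, 11.3 and 9.85 FPKM in mutants, against 5.004, 5.98 and 9.17 FPKM in controls. Eya3 and Six5 were mixed across litters, with log2 differences of 0.04 and -0.13. Six4, a homeodomain factor related to Six2, showed the reverse litter pattern. It was at 20.3, 8.58 and 10.7 FPKM in mutants, against 24.5, 7.03 and 9.62 FPKM in controls, so litter 1 was the highest in both genotypes. Six3 was listed at 0 FPKM in every column, and Six6 did not exceed 0.0245 FPKM.

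Tnmd, the marker of maturing tendon cells, was between 1.54 and 2.39 FPKM in every column but 1. It was at 1.64, 2.39 and 1.54 FPKM in mutants of litters 1, 2 and 3, against 1.63, 9.15 and 1.65 FPKM in controls. The litter 2 control alone stood high, and mutant and control were nearly level in litters 1 and 3. Mutants averaged 1.86 ± 0.460 FPKM and controls 4.14 ± 4.34 FPKM (SD, n = 3 each), a log2 difference of -0.55 (SE 0.53, 95% interval -1.81 to 0.72; limma adjusted p = 1.00). Without the litter 2 control the difference was 0.10. Tnmd lies on the X chromosome, and the litter 2 columns differed in sex make-up. The column with Y-linked Eif2s3y at 0 FPKM was the mutant, with the lower Tnmd, and the control had 23.9 FPKM of Eif2s3y. The part of sex in the Tnmd values was not tested.

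The litter 2 control also stood high in other genes. Among the 5 rows most like Tnmd were Pabpc4, Mrps14, Cdc26 and BC002163, with Pearson correlations from 0.990 to 0.996 over the 6 columns. They were picked by that likeness, so their high values in the litter 2 control follow from the choice. Pabpc4 encodes a poly(A)-binding protein and Mrps14 a protein of the mitochondrial ribosome. Pabpc4 was at 12.8, 17.0 and 13.1 FPKM in mutants, against 12.8, 36.3 and 12.9 FPKM in controls. A correlation with Tnmd of 0.9 or more was reached by 304 of 9224 rows. The litter 2 control was the highest column in 32.2% of the 12314 tested rows, but over 3-fold above each other column, as for Tnmd, in only 12 of them (0.0975%). Of 9 surface ectoderm markers, all 9 were highest in the litter 2 control, and they summed to between 14.0 and 18.2 FPKM in mutants and between 16.8 and 35.1 FPKM in controls. Of 8 endothelial markers, 6 were highest there, and the sums ran from 11.8 to 14.7 FPKM in mutants and from 16.2 to 20.7 FPKM in controls. All control sums of these 8 thus lay above all mutant sums, those of litters 1 and 3 included. Egfl7, another of the 8, was lowest in the litter 2 control, at 4.12 FPKM. Of 12 muscle cell markers 5 were highest there, a share near that of all rows, with sums from 52.8 to 80.7 FPKM in mutants and from 32.1 to 93.7 FPKM in controls, and none of these markers was at 0 in any column. Their part in the Tnmd value was not tested. Lect1, which encodes chondromodulin, the closest relative of Tnmd, was at 40.1, 54.0 and 44.4 FPKM in mutants, against 41.3, 50.4 and 38.7 FPKM in controls.

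**Figure D2:**
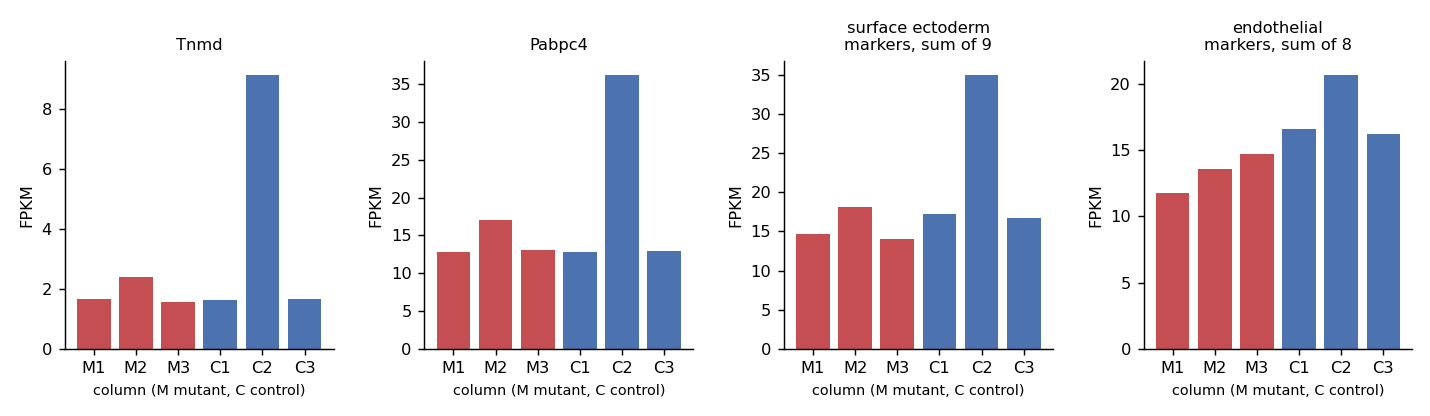
FPKM of Tnmd and Pabpc4 and summed FPKM of surface ectoderm and endothelial markers in the 3 mutant columns (M1 to M3) and the 3 control columns (C1 to C3). The litter 2 control is the highest column in each panel, at 9.15 FPKM for Tnmd and 36.3 FPKM for Pabpc4. Pabpc4 was picked by its likeness to Tnmd over these columns.

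Tnc encodes tenascin C, a large glycoprotein of tendon, perichondrium and other dense mesenchyme. It was at 46.2, 51.4 and 45.4 FPKM in mutants of litters 1, 2 and 3, against 85.4, 60.1 and 70.8 FPKM in controls. The highest mutant lay below the lowest control, and the gap was narrowest in litter 2. Mutants averaged 47.7 ± 3.25 FPKM and controls 72.1 ± 12.7 FPKM (SD, n = 3 each), a log2 difference of -0.57 (SE 0.17, 95% interval -0.97 to -0.17; limma adjusted p = 1.00, or 0.236 with the block). The exact two-sided permutation p was again 0.1. Other tenascins gave no comparison: Tnr, Tnxb and Tnn were not tested, with means below 1 FPKM in both groups.

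Thrombospondins are secreted multimeric proteins that bind matrix and cell surfaces, and the family was divided. Thbs2 was at 12.3, 14.9 and 14.0 FPKM in mutants, against 17.2, 15.5 and 17.0 FPKM in controls. The groups did not overlap, although litter 2 held only a small gap. Its log2 difference was -0.26 (SE 0.14, 95% interval -0.58 to 0.07; limma adjusted p = 1.00). Thbs4, abundant in tendon and at its junction with muscle, was at 2.51, 10.7 and 10.2 FPKM in mutants, against 3.94, 18.7 and 20.5 FPKM in controls. The mutant held 63.8%, 57.4% and 49.95% of its control in litters 1, 2 and 3, but litter 1 was low in both genotypes, as for Six2. The log2 difference was -0.73 with an SE of 0.70 without the block and of 0.13 with it (limma adjusted p = 1.00 and 0.105). Without the litter 1 mutant or the litter 1 control it was -0.16 or -1.41. A deposited list of genes named as directly repressed by Shox2 holds 2 of the 9 tendon genes, Mkx and Thbs4. Mkx was higher and Thbs4 lower in the mutant of each litter. Of other genes named here, the list holds Dach1, Eya4 and Col12a1, which were higher in the mutant of each litter. It also holds Lect1 and Twist1, which were mixed, Shox2 itself, which was lower, and Tnn, which was not tested. The share of all rows on the list is not given here. The criteria for that list were not stated.

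Thbs1, a member with roles in TGF-beta activation and vessel growth, went the other way from Thbs2 and Thbs4. It was at 139, 143 and 140 FPKM in mutants, against 99.4, 63.5 and 89.9 FPKM in controls. The mutant values lay within a narrow range above all controls, with a log2 difference of 0.76 (SE 0.19; limma adjusted p = 0.859, or 0.151 with the block). Comp, the cartilage oligomeric matrix protein and the fifth family member, was at 1.14, 1.77 and 2.26 FPKM in mutants, against 2.22, 5.69 and 3.96 FPKM in controls. Its groups overlapped slightly, while each mutant was below its own control. They did not overlap once columns were centred or quantile normalised. Thbs3 was at 14.9, 22.0 and 18.98 FPKM in mutants, against 17.1, 21.8 and 20.6 FPKM in controls, with mixed directions.

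Htra3, a secreted serine protease of the HtrA family that cleaves matrix proteins, was at 1.71, 4.59 and 4.80 FPKM in mutants, against 3.69, 6.79 and 6.62 FPKM in controls. Each mutant was below its own control, but the groups overlapped, with litter 1 lower in both genotypes. The log2 difference was -0.55 (SE 0.36, 95% interval -1.41 to 0.30; limma adjusted p = 1.00). With the block its SE was 0.14 and limma's adjusted p 0.226. Without the litter 1 mutant or control the difference was -0.20 or -0.79. The other tested proteases of the family were lower in the mutant of each litter as well. Htra1, also secreted, was at 8.63, 13.3 and 12.0 FPKM in mutants, against 9.43, 22.4 and 13.8 FPKM in controls. Htra2, a mitochondrial member, was at 12.4, 22.0 and 20.4 FPKM in mutants, against 16.7, 31.3 and 27.8 FPKM in controls. Htra4 did not exceed 0.0734 FPKM.

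**Figure D3:**
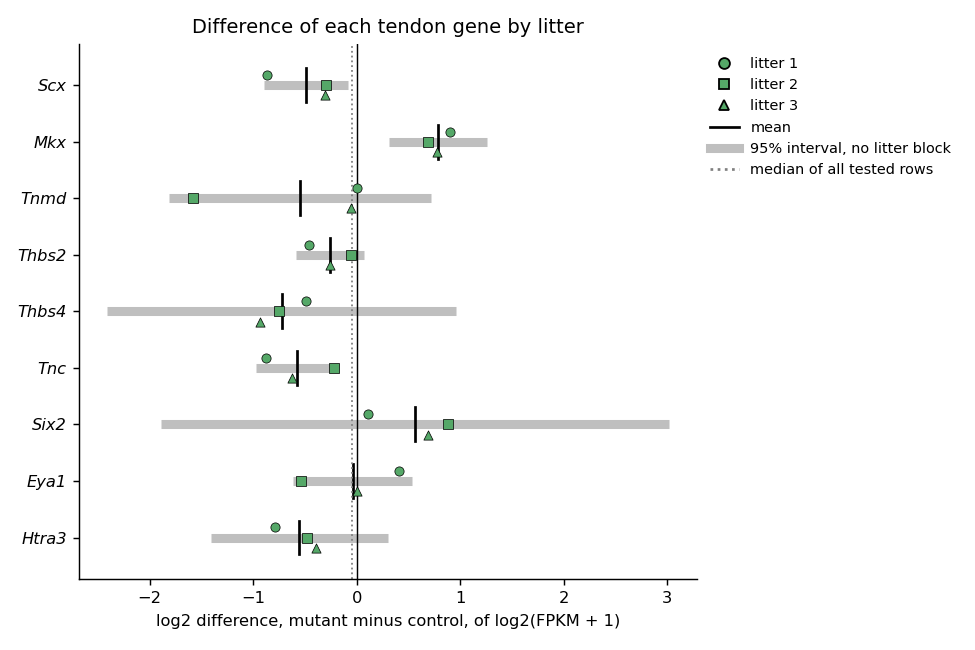
Difference of each of the 9 tendon genes between mutant and control on the log2(FPKM + 1) scale, by litter (symbols), with the mean and the 95% interval of the fit without a litter block. Mkx (0.79) and Six2 (0.56) lie to the right of 0 in each litter, Scx, Thbs2, Thbs4, Tnc and Htra3 to the left, and Tnmd and Eya1 on both sides.

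Over the 9 genes, 2 were higher and 5 lower in the mutant of each litter, beside 15.7% and 22.3% of all 12314 tested rows. Without overlap between groups, 1 was higher (Mkx) and 3 were lower (Scx, Thbs2 and Tnc), beside 4.22% and 5.03% of all tested rows. Without the litter 1 pair these became 2 and 5, with Six2, Thbs4 and Htra3 added, but 2 columns a side part more easily, and 17.5% of all tested rows were then higher and 20.1% lower without overlap. The median log2 difference over the 9 genes was -0.49, against -0.04 over all tested rows, and it was -0.46, -0.30 and -0.26 in litters 1, 2 and 3. Limma called 0 of the 9 genes and 0 rows in all at an adjusted p under 0.05 (0% of rows), with or without the block. Even Shox2, the disrupted gene, was not called at a log2 difference of -2.75 (limma adjusted p = 0.803, or 0.0998 with the block). A gene not called is thus not shown to be unchanged. At an unadjusted p under 0.05, 1 of the 9 was higher and 2 were lower, beside 2.21% and 1.36% of rows, or 2 and 4 with the block, beside 5.34% and 6.29%. The blocked fit without the litter 2 pair called 2.56% of rows higher and 1.78% lower, among them Mkx higher and Scx, Thbs4, Tnc and Htra3 lower (limma adjusted p from 4.94e-06 to 0.00671), with 2 pairs and 1 residual degree of freedom per gene.

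Levels differed widely among the genes, and FPKM allows them to be set side by side. In mutants the order of mean FPKM, highest to lowest, was Scx, Tnc, Six2, Mkx, Thbs2, Thbs4, Htra3, Tnmd and Eya1, and in controls Scx, Tnc, Thbs2, Thbs4, Six2, Mkx, Htra3, Tnmd and Eya1. By mean, Mkx and Six2 thus stood above Thbs2 and Thbs4 in mutants and below them in controls, but not in every column. In the litter 1 mutant Six2 (2.96 FPKM) was below Thbs2 (12.3 FPKM). In the controls of litters 2 and 3 Six2 (18.8 and 18.4 FPKM) was above Thbs2 (15.5 and 17.0 FPKM). Mkx (7.92 FPKM) was above Thbs4 (3.94 FPKM) in the litter 1 control. Among neighbours in the order of means, the columns did not overlap between Tnc and Six2 or Thbs2 and Thbs4 in mutants, nor between Tnc and Thbs2 or Mkx and Htra3 in controls. All other neighbours overlapped across columns. Within each mutant column Mkx still stood above Thbs2, Thbs4 above Htra3 and Htra3 above Tnmd. Within each control column Tnmd stood above Eya1. The order of the remaining neighbours changed between columns, so it is not set. Scx lay between percentiles 87.9 and 94.7 of the tested rows in its column and Tnc between 84.7 and 94.7, while Eya1 did not exceed percentile 12.2. Thbs2 varied least over the 6 columns, with a highest value 1.41 times its lowest, and Six2 most, at 13.3 times.

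Of 11 helix-loop-helix genes, counting Scx, 2 were higher and 4 lower in the mutant of each litter (18.2% and 36.4%), beside 15.7% and 22.3% of all tested rows, so the count says little of the group. Tcf15, known as paraxis, a close relative of Scx, was at 3.59, 5.24 and 6.17 FPKM in mutants, against 4.99, 11.9 and 7.21 FPKM in controls, lower in each litter with overlap. Twist2, a repressor of mesenchymal differentiation, was at 64.5, 99.7 and 91.6 FPKM in mutants, against 89.5, 154 and 97.1 FPKM in controls. Id2, an inhibitor that sequesters the E-protein partners of such factors, was at 126, 165 and 167 FPKM in mutants, against 96.3, 121 and 100.05 FPKM in controls, without overlap. Id4, its relative, went the other way, at 10.1, 10.7 and 11.6 FPKM in mutants, against 12.4, 21.4 and 13.7 FPKM in controls, also without overlap. The E-protein gene Tcf12, a partner of Scx, was at 125, 120 and 124 FPKM in mutants, against 120, 113 and 118 FPKM in controls, so it was higher in each litter by little, and its groups overlapped once columns were centred or quantile normalised. Twist1, Tcf3, Tcf4, Id1 and Id3 were mixed, with log2 differences from -0.11 to 0.26.

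**Figure D4:**
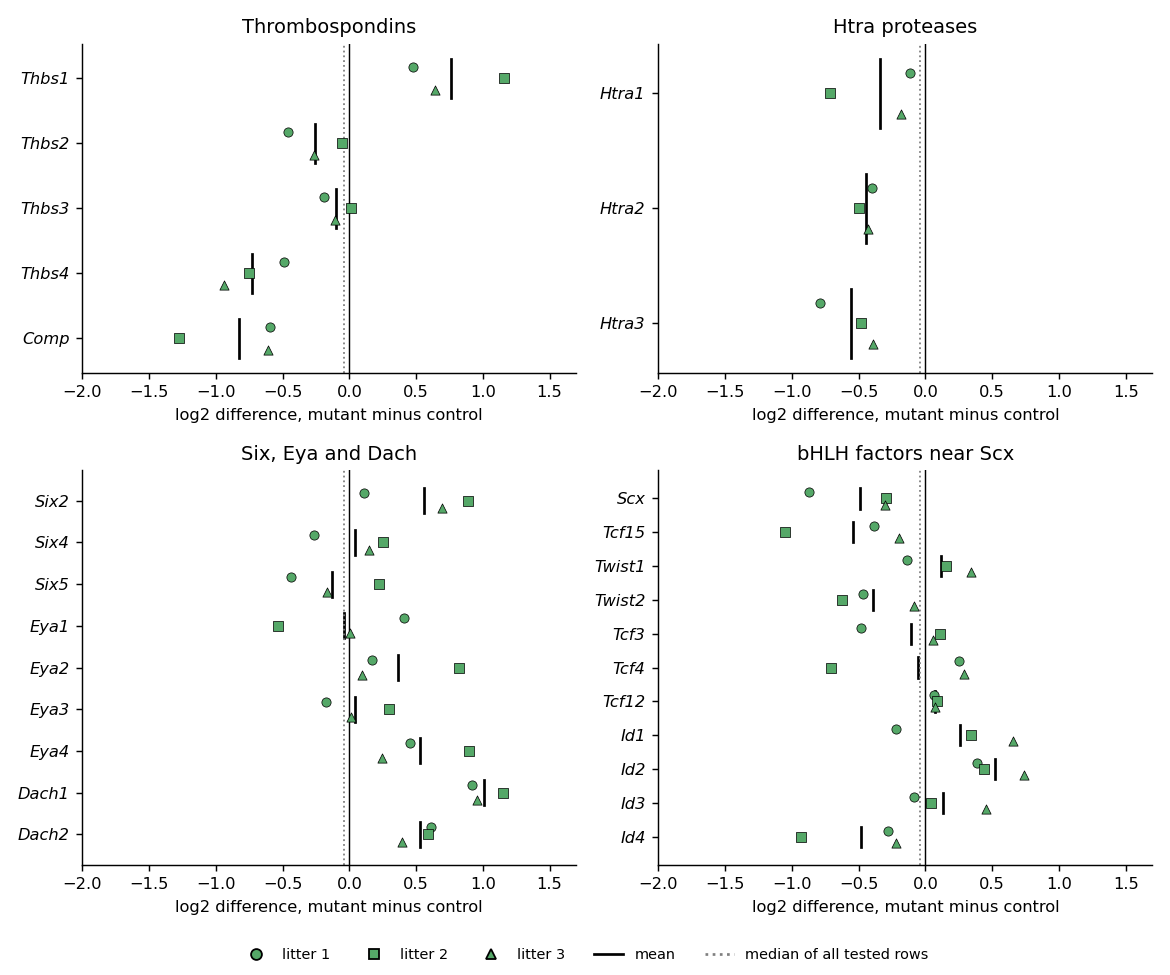
Differences between mutant and control on the log2(FPKM + 1) scale, by litter (symbols) and as the mean (bars), for tested thrombospondins, HtrA proteases, the network of Six2, Eya and Dach genes, and helix-loop-helix factors. Thbs1, Dach1, Dach2, Eya2, Eya4, Six2, Id2 and Tcf12 lie to the right of 0 in all 3 litters. Thbs2, Thbs4, Comp, Htra1, Htra2, Htra3, Scx, Tcf15, Twist2 and Id4 lie to the left in all 3.

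A list of 43 other genes of tendon differentiation, its signals and its collagens had 39 tested members. Of these, 3 were higher and 16 lower in the mutant of each litter (7.69% and 41.0%, beside 15.7% and 22.3% of all tested rows), or 6 and 13 after quantile normalisation, and 0 passed limma's threshold in either fit. Their median log2 difference was -0.13, and by litter -0.32, -0.03 and -0.03. Kera, the proteoglycan keratocan, was at 92.6, 82.9 and 113 FPKM in mutants, against 43.1, 41.9 and 51.1 FPKM in controls. Col12a1, a collagen that bridges collagen fibrils, was at 79.2, 74.7 and 66.9 FPKM in mutants, against 60.3, 35.5 and 46.7 FPKM in controls. Both were higher without overlap, and they followed the direction of Mkx and not that of Scx. Tgfbr1, a TGF-beta receptor, and Col11a1, a fibrillar collagen of cartilage and early tendon, were next, with log2 differences of 0.22 and 0.28. Col11a1 was lower in the mutant of litter 1 by little (-0.04). Once columns were centred or quantile normalised, Col11a1 was higher in each litter without overlap. On the lower side, Fgf8, a growth factor, was at 2.52, 6.11 and 5.95 FPKM in mutants, against 6.12, 9.92 and 10.2 FPKM in controls. Etv4, a target of FGF signalling, was at 7.26, 12.8 and 11.2 FPKM in mutants, against 16.8, 18.1 and 20.99 FPKM in controls. Aspn, the small proteoglycan asporin, was at 8.69, 9.71 and 11.8 FPKM in mutants, against 16.2, 14.6 and 18.5 FPKM in controls. These 3 genes were lower without overlap, and Comp, given above, was the fourth by p with the block. Limma's adjusted p with the block was 0.0643 for Kera and 0.0998, 0.103 and 0.107 for Fgf8, Aspn and Etv4. The 14 of 15 cartilage markers in the table summed to between 851 and 1455 FPKM in mutants and between 1003 and 1145 FPKM in controls, and 6 of 7 muscle connective tissue markers to between 191 and 325 FPKM in mutants and between 244 and 369 FPKM in controls. Their part in the tendon genes' values was not tested.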

How the data were processed

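Per the submitters' processing notes, the reads were processed with TopHat and Cuffdiff against build mm9. Per the file headers, Cuffdiff's geometric normalisation was applied and is stated above each litter, so levels across litters may rest on separate scalings. The values deposited by the authors were taken as FPKM, a unit the header does not write. Depth is unknown, so no counting interval is given. No source used here gives tool versions, annotation or strand setting.

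Log2(FPKM + 1) values were fitted with limma 3.58.1 (R 4.3.3, intensity trend) over 12314 rows with 1 FPKM or more in at least 3 columns, mutants minus controls. P-values were adjusted by Benjamini-Hochberg over all rows, with a threshold of 0.05. The fit was run on simulated data, whose noise was capped below that of the noisiest rows. That run does not show how well the fit performs on the real columns. Per the labels, columns with the same number share a litter. Deviations of paired columns correlated at 0.873, 0.568 and 0.770 across genes in litters 1, 2 and 3, so a fit with litter as a replicate block stands beside the fit without it. P-values measure the spread between these columns, which may in part be technical.

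The genes and lists were chosen with earlier results of these data known. From the list of other tendon genes, the 4 with the smallest blocked p in each direction were named. Genes like Scx or Tnmd were the 5 of highest Pearson correlation. Bop1 was chosen after its values were seen. Results for some genes of the lists are not reported here.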

Additional observations from a re-analysis of the deposited data

How the results depend on the processing

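Of 18 alternative fits, none reversed Scx, Mkx, Thbs2, Thbs4, Tnc or Htra3. Eya1 reversed with column weights (0.027) and in the blocked fit without the litter 2 pair (0.21). Leaving out 1 column at a time, Eya1 ran from -0.21 to 0.15, Six2 from -0.24 to 1.595 and Tnmd from -0.87 to 0.10. With a mean of 5 FPKM or more, Tnmd, Eya1 and Htra3 were not tested.

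With litter as a replicate block 0 genes were called, as without it. Column weights called 15 genes, leaving out 1 column 0 to 1, and the replicate block without the litter 2 or litter 3 pair 534 or 36. Among the 9 genes, only the fit without the litter 2 pair made calls, for Scx, Mkx, Thbs4, Tnc and Htra3. The cause was not tested.

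The median over the 9 genes was -0.31 with a pseudocount of 5, -0.37 with a mean of 5 FPKM or more (6 genes), -0.22 with column weights, and -0.30 and -0.36 in the blocked fit without the litter 1 and litter 2 pairs. Leaving out 1 column it ran from -0.58 to -0.20. Without the litter 1 pair, counted after the data were seen, 2 genes were higher and 5 lower without overlap, beside 17.5% and 20.1% of all tested rows. Unknown depth limits what can be said of Eya1, Tnmd and Htra3, which were low.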
